A study of Mus musculus with 8 samples.

Results

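Mt1, Mt2 and Mt3 are the metallothionein genes listed among the 26711 features measured in nuclei of the mouse primary visual cortex (V1), and these 3 genes are described here in every deposited cell type and library. They were taken by gene symbol, by a rule that uses no measured value, although the family was chosen with earlier results of these data known, and all 3 were found. Another mouse gene of the family, Mt4, had no row in the table.

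The data were single-nucleus RNA-seq counts of 102330 nuclei from mice at postnatal day 21. All mice carried GRfl/fl alleles, in which the glucocorticoid receptor (GR) gene Nr3c1 is flanked by loxP sites, and all were injected at birth with an adeno-associated virus whose GfaABC1D promoter drives expression in astrocytes. In GR-KO mice this AAV2/5 vector encoded Cre and, linked to it, the membrane-targeted reporter EGFP-CAAX with 4x6T and WPRE elements. In GR-Con mice the vector was the same except that it held ΔCre, an inactive Cre. Each genotype was reared under normal light (NR) or in chronic darkness (DR), which gave 4 groups of 2 libraries, 1 from a male and 1 from a female mouse. The contrast of GR-KO with GR-Con asks what the receptor does in astrocytes, and that of DR with NR asks what visual experience does.

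Metallothioneins are small, cysteine-rich proteins that bind zinc and copper ions. Mt1 and Mt2 are expressed in many tissues, are induced by metals through the metal-responsive transcription factor Mtf1, and are known targets of glucocorticoids in the liver and other organs. Mt3 is best known from the brain and was first described as a growth inhibitory factor, and it responds little to the inducers of the other two. In the cortex, Mt1 and Mt2 are usually assigned to astrocytes, and Mt3 to astrocytes and neurons.

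The libraries held 9517 to 15161 nuclei and 1.69e+08 to 2.89e+08 unique molecular identifiers (UMIs), of which astrocytes gave 924 to 1794 nuclei. Astrocyte nuclei were deeper in NR GR-KO, with a median of 8662 (male) and 12123.5 (female) UMIs, than in the other 6 libraries, with 4889 to 7199. The sort excluded GFP-positive nuclei, the virus does not reach every astrocyte, and the deposited table does not mark transduced nuclei, so an astrocyte level averages over nuclei with and without the vector. Cre UMIs were 0 in astrocytes of all 4 GR-Con libraries and 43 to 86 in those of GR-KO libraries. Levels are given as CPM, the UMIs of a gene scaled to a common total of UMIs per cell type and library. In astrocytes Nr3c1 was at 207 to 263 CPM in GR-Con and 268 to 284 in GR-KO, higher in all 4 GR-KO libraries. A 3′ tag outside the deleted part would not check the deletion, and where the Nr3c1 UMIs lie in the gene was not determined. Cre was also read in neurons of GR-KO libraries, at 0.745 to 3.70 CPM in excitatory and 1.13 to 3.80 CPM in inhibitory neurons. In astrocytes of the GR-KO libraries it was at 4.14 to 10.4 CPM. The NR GR-Con male, NR GR-KO male and DR GR-Con female libraries held 2 to 4 microglia against 573 to 948 in the other 5, and 1220 of 101098 distinct barcodes occurred in more than 1 library. Of the 62 cell type markers with a row in the table, 56 were highest in the type they mark, among them 6 of 6 for astrocytes, while none was highest in its own type for L4, L5PT and L6IT neurons.

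The 3 genes lie on chromosome 8 of GRCm38, on the + strand, within a single cluster in the GENCODE vM21 annotation. Mt3 spans bases 94152607 to 94154146, Mt2 spans 94172664 to 94173568, and Mt1 spans 94179082 to 94180327. The gap from Mt3 to Mt2 is 18517 bases and that from Mt2 to Mt1 is 5513 bases. Each gene has 3 exons in the transcript listed first for it. The 250 bases before the RefSeq start of each gene (GRCm38.p6) are shown because Mt1 and Mt2 were called in comparisons below in which Mt3 was not, with the core of the metal response element (MRE), TGCACNC or TGCGCNC on either strand, in capitals. They are chr8:94178839-94179088 for Mt1, chr8:94172368-94172617 for Mt2 and chr8:94152357-94152606 for Mt3.
Mt1: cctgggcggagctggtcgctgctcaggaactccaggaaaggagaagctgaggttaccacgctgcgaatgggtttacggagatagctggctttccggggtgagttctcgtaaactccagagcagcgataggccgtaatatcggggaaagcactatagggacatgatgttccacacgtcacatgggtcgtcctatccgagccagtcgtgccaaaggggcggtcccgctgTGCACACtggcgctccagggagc
Mt2: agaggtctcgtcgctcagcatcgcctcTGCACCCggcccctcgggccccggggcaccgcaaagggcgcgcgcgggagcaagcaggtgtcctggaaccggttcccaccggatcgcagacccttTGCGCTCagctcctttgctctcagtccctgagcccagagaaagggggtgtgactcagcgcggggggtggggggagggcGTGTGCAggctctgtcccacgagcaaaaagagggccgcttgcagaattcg
Mt3: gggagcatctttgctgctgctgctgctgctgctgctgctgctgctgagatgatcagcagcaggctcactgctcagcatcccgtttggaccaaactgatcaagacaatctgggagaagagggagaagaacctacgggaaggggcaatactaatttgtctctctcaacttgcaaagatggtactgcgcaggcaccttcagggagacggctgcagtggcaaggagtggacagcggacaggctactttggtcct

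The printed stretch held 1 MRE core for Mt1, 3 for Mt2 and 0 for Mt3. In the 300-base window that adds the first 50 bases of the transcript the numbers were 3, 4 and 1. Of 32841 RefSeq promoter windows of that length, 25.7% held at least 1 core, 1.97% at least 3 and 0.518% at least 4. G and C made up 60.7% of the Mt1 window, 67.7% of that of Mt2 and 56.0% of that of Mt3. The median over all windows was 52.7%, and the shares were not matched for this composition. Neither the full GR element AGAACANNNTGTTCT nor its shorter site AGAACA occurred in the 3 windows. Of all windows, 0.00913% held the full element and 19.0% the shorter site, so a window without the full element is the rule. The study reports light-induced GR binding at Mt1 and Mt2 in V1 astrocytes at an earlier age. Its binding sites were not compared with these windows. These are matches of letters only. GENCODE places further transcript starts beyond these windows, at 94179211 and 94179241 for Mt1, 94172860 for Mt2 and 94152746 for Mt3, and the windows do not cover all of the bases before them. The Mt1 cores at 94179091 and 94179109, outside the printed stretch, lie before both of these Mt1 starts. The TATA box letters TATAAA occurred in none of the 3 windows, against 13.6% of all windows.

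All 3 genes had their highest level in astrocytes. Mt1 averaged 86.0 ± 35.2 CPM there, Mt2 28.7 ± 12.6 and Mt3 64.8 ± 11.9 (SD, n = 8 libraries). The lowest astrocyte library was above the highest library of every type that came next in order, VLMC (vascular and leptomeningeal cells) for Mt1, endothelial cells for Mt2 and microglia for Mt3. The mean astrocyte level was 4.43 times that of VLMC for Mt1, 6.44 times that of endothelial cells for Mt2 and 3.83 times that of microglia for Mt3. These levels are described without a test, and since 3′ UMIs are not scaled by transcript length the genes are not ranked against each other.

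**Figure D1:**
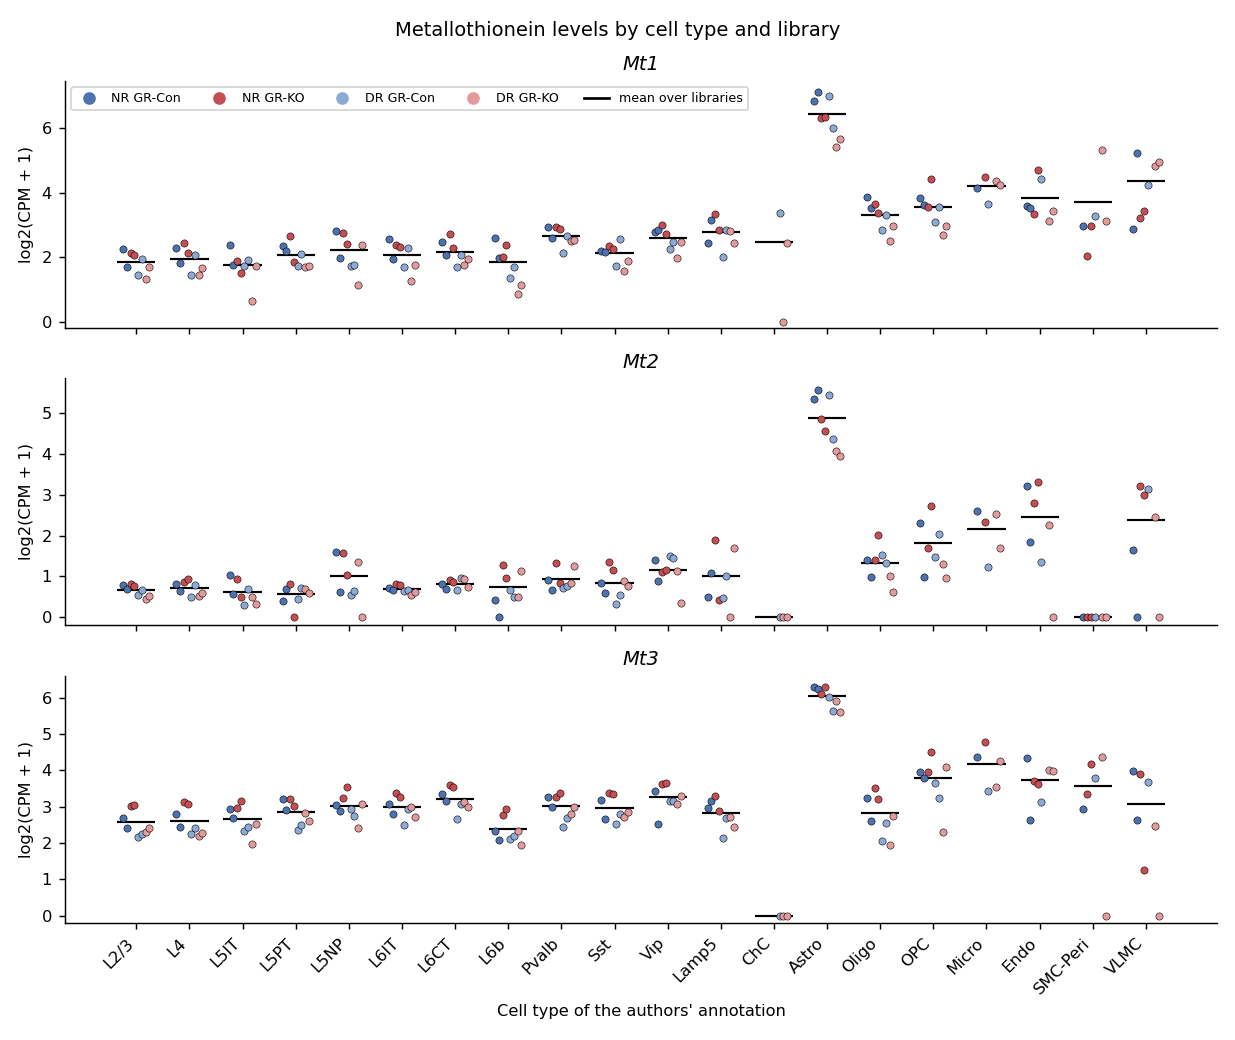
Level of Mt1, Mt2 and Mt3 as log2(CPM + 1) in 20 cell types, with 1 point per library that held at least 10 nuclei of the type, coloured by group, and the mean as a bar. Astrocytes stand above every other type in all 3 panels, and most other types overlap with their neighbours.

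Below astrocytes the order differed between the genes. For Mt1 it ran from VLMC, 19.4 ± 11.95 CPM (SD, n = 7), through microglia, 17.4 (n = 5), endothelial cells, 13.3, smooth muscle cells and pericytes, 12.03, and oligodendrocyte precursor cells (OPC), 10.7, to oligodendrocytes, 8.92. Inhibitory neuron types followed at 3.33 to 5.89 CPM and excitatory types at 2.38 to 3.64. For Mt3 the order was microglia, 16.9 CPM, OPC, 12.9, endothelial cells, 12.2, and smooth muscle cells and pericytes, 10.9. VLMC, at 7.39 CPM, and oligodendrocytes, at 6.09, lay within the Mt3 range of the 12 neuron types other than ChC, 4.19 to 8.69, in which Vip (8.69) and L6CT (8.32) were highest. Mt2 was low outside astrocytes, with 4.46 CPM in endothelial cells, 4.26 in VLMC, 3.49 in microglia, 2.52 in OPC, 1.53 in oligodendrocytes and 0.479 to 1.24 in those neuron types. Levels of the vascular types and of chandelier cells (ChC, 70 nuclei in all) rest on few UMIs: SMC and pericytes gave 9 Mt1, 1 Mt2 and 14 Mt3 UMIs over all libraries.

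Few neighbours in these orders could be told apart. Of 19 neighbouring pairs of types, the ranges over the libraries that held at least 10 nuclei of both types were separate for 1 pair for Mt1, 2 for Mt2 and 2 for Mt3, the astrocyte pair each time and otherwise the pair with ChC. The ChC pairs rest on 3 libraries, and over its own 8 libraries the Mt2 level of L5PT, the neighbour of ChC, also reached 0. The mean difference between neighbours was within its SD over libraries in 17 pairs for Mt1, 17 for Mt2 and 15 for Mt3.

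Free RNA in droplets gives UMIs in cells that do not express a gene, so the levels outside astrocytes were set beside those of 6 astrocyte markers (Slc1a2, Slc1a3, Aldoc, Gja1, Aqp4 and Slc4a4). As a percent of the astrocyte level, Mt1 lay at 2.76 to 6.85 in the 13 neuron types, Mt2 at 0 to 4.32 and Mt3 at 0 to 13.4. Mt1 was above the median of the 6 markers in 13 of 13 neuron types, Mt2 in 12 and Mt3 in 12. Mt3 was above all 6 markers in 11 of the 19 types other than astrocytes, Mt1 in 4 and Mt2 in 3. In oligodendrocytes, where the marker median was 2.06%, Mt1 stood at 10.4%, Mt2 at 5.33% and Mt3 at 9.41%, and in OPC, where it was 5.51%, they stood at 12.5%, 8.76% and 19.9%.

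**Figure D2:**
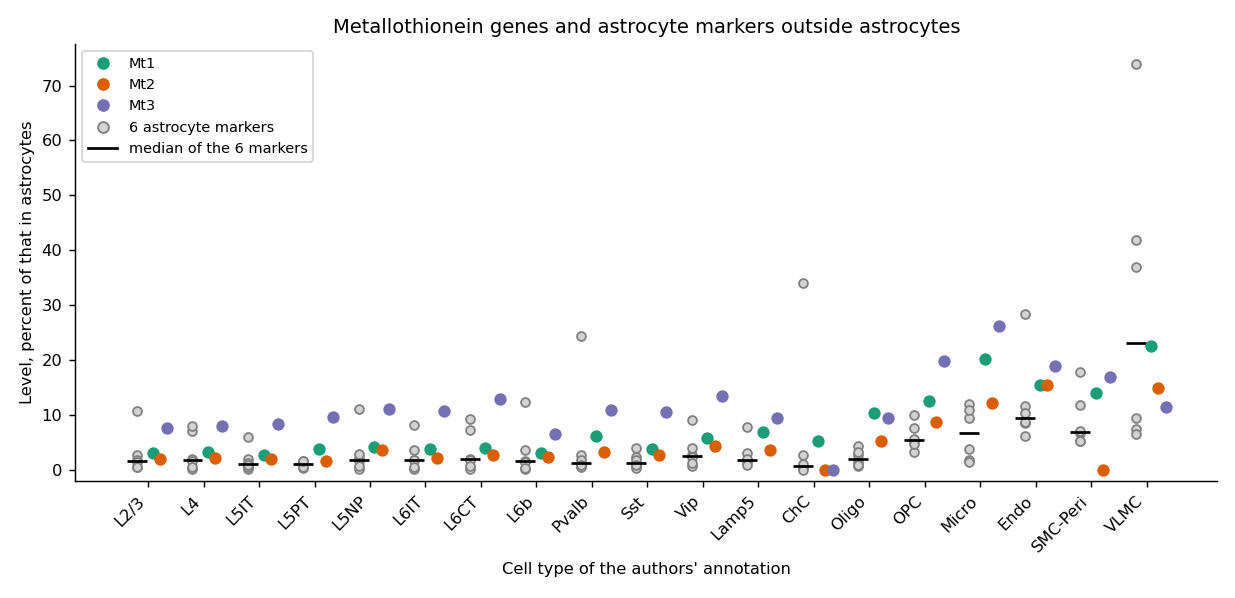
Level in each type other than astrocytes, as a percent of the mean astrocyte level, for Mt1, Mt2 and Mt3 and for 6 astrocyte markers (grey, median as a bar). Mt3 lies above the marker median in every neuron type but ChC, and above most single markers.

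With UMIs pooled over libraries, the ratio between the 3 genes differed from type to type, while the make-up of the free RNA was not measured. There were 0.750 Mt3 UMIs per Mt1 UMI in astrocytes, against 1.03 to 2.36 in the neuron types. In the other non-neuronal types the ratio ran from 0.489 (VLMC) to 1.56 (smooth muscle cells and pericytes), with 0.711 in oligodendrocytes. By library the astrocyte ratio ran from 0.512 to 1.42, which overlapped with Lamp5, at 0.889 to 1.55, but not with L6CT, at 1.98 to 3.27. There were 0.331 Mt2 UMIs per Mt1 UMI in astrocytes, against 0.160 to 0.288 in the 12 neuron types other than ChC. By library this astrocyte ratio, at 0.285 to 0.376, overlapped with Vip, at 0.0588 to 0.500, but not with L2/3, at 0.191 to 0.270. Excitatory neurons averaged 5.84 ± 1.56 CPM of Mt3 and inhibitory neurons 7.18 ± 1.68 (SD, n = 8).

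Astrocytes were 9.27% of the nuclei and gave 3.36% of all UMIs, but 45.9% of the 12144 Mt1 UMIs, 56.9% of the 3242 Mt2 UMIs and 26.8% of the 15626 Mt3 UMIs. Most Mt3 UMIs in the table were therefore read in nuclei of other types, of which neurons were far more numerous and deeper, and the share of free RNA among them was not measured. Single astrocyte nuclei held few molecules, at most 9 UMIs of Mt1, 5 of Mt2 and 6 of Mt3. An Mt1 UMI was found in 37.2% of the 9486 astrocyte nuclei (95% Clopper-Pearson interval 36.2 to 38.2), an Mt2 UMI in 16.2% (15.5 to 17.0) and an Mt3 UMI in 33.2% (32.2 to 34.1), at a median depth of 6107 UMIs. In L2/3 neurons, with a median of 21863 UMIs, the shares were 6.09%, 1.40% and 11.2%. After each nucleus was thinned to 1000 UMIs, the astrocyte shares were 8.42%, 3.01% and 6.34% and the L2/3 shares 0.278%, 0.0603% and 0.508%. The intervals treat nuclei pooled over the 8 libraries as independent and cover counting error only. Before thinning, the astrocyte shares by library ran from 16.8% to 49.9% for Mt1, 7.14% to 21.6% for Mt2 and 21.8% to 55.0% for Mt3.

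The genes whose levels followed each metallothionein most closely over the 20 types were read next. Ranked by Pearson correlation of log2(CPM + 1) among 13625 genes, those nearest to Mt1 were Apoe, the main apolipoprotein of the brain (0.975), Aldoc, a glycolytic enzyme of astrocytes (0.967), Rida (0.961), Nat8f1 (0.957) and the glutamate transporter Slc1a3 (0.956). Nearest to Mt2 were the cytokine Il33 (0.973), Btbd17 (0.962), the desaturase Scd1 (0.949), Myorg (0.947) and the urea cycle enzyme Otc (0.945). For Mt3 they were the secreted chaperone Clu (0.929), 6430550D23Rik (0.911), the claudin Cldn10 (0.885), Med25 (0.874) and Rgp1 (0.872). The members themselves correlated at 0.862 (Mt1 and Mt2), 0.782 (Mt2 and Mt3) and 0.708 (Mt1 and Mt3). The 20 points share their 8 libraries and a single high type, astrocytes, so these values describe a likeness and carry no p.

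In astrocytes of light-reared mice, Mt1 and Mt2 were lower in GR-KO than in GR-Con, and Mt3 gave no call. Mt1 was at 112 (male) and 136 (female) CPM in NR GR-Con and at 78.2 and 79.8 in NR GR-KO. Mt2 was at 39.9 and 46.6 CPM in NR GR-Con and at 28.1 and 22.7 in NR GR-KO. For both genes the GR-KO libraries lay below both GR-Con libraries. The share of all genes that separate in this way was not counted, here or in the comparisons below. Mt3 was at 77.4 and 75.1 CPM in NR GR-Con and at 67.2 and 77.3 in NR GR-KO, and these groups overlapped. Astrocyte nuclei were deeper in NR GR-KO, with medians of 8662 and 12123.5 UMIs, than in NR GR-Con, with 6267 and 5586.5. The part of depth in the genotype differences was not tested.

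By the edgeR likelihood ratio test with Benjamini-Hochberg adjustment over all genes of the cell type, Mt1 fell by 0.72 on the log2 scale (SE 0.157, adjusted p = 2.14e-04). Mt2 fell by 0.84 (SE 0.176, adjusted p = 8.55e-05). The Mt3 estimate was -0.14 (SE 0.149, adjusted p = 0.806). In this comparison 7.11% of 14493 genes were called in astrocytes, and 2 of the 3 members were. The edgeR quasi-likelihood test, which allows for uncertainty in the spread, called the same 2 members (adjusted p = 0.010 for Mt1 and 0.012 for Mt2) and 5.15% of all genes. These levels rest on 660 to 924 Mt1, 237 to 312 Mt2 and 503 to 896 Mt3 UMIs per NR library. Both calls held without each of the 4 libraries in turn, with Mt1 between -0.86 and -0.56 and Mt2 between -0.98 and -0.71.

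**Figure D3:**
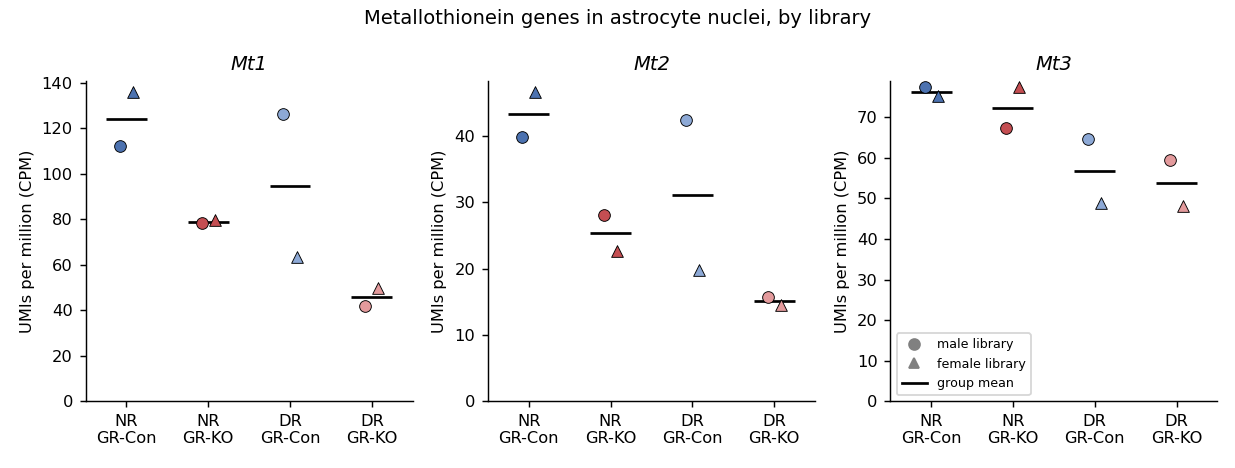
CPM of Mt1, Mt2 and Mt3 in astrocyte nuclei of the 8 libraries by group, with circles for male and triangles for female libraries and a bar for the group mean. GR-KO libraries lie below GR-Con libraries of the same rearing for Mt1 and Mt2 but not for Mt3, and the DR GR-Con male and female libraries are far apart.

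In dark-reared mice the same direction was seen with a wider spread between the controls. Mt1 was at 126 (male) and 63.5 (female) CPM in DR GR-Con and at 41.9 and 49.7 in DR GR-KO. Mt2 was at 42.4 and 19.7 CPM in DR GR-Con and at 15.7 and 14.5 in DR GR-KO. Mt3 was at 64.6 and 48.9 CPM in DR GR-Con and at 59.5 and 48.0 in DR GR-KO. Both GR-KO libraries again lay below both GR-Con libraries for Mt1 and Mt2, and the groups overlapped for Mt3.

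No member was called in DR by the likelihood ratio test, in which 0.736% of genes were. The quasi-likelihood test called no member either, and 0 of 14139 genes. The estimates were -1.03 for Mt1 (SE 0.361, adjusted p = 0.242), -1.03 for Mt2 (SE 0.402, adjusted p = 0.387) and -0.06 for Mt3 (SE 0.246). At an unadjusted p under 0.05 there were 2 members, Mt1 and Mt2. Without the DR GR-Con female library, which is also among those with few microglia, Mt1 was -1.45 and Mt2 -1.49, with 1 control mouse left. Without the DR GR-Con male library they were -0.41 and -0.34, so the value in DR depends on which control mouse is kept.

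Over both rearings, with rearing as a term, Mt1 and Mt2 were called lower in GR-KO. Mt1 fell by 0.88 (SE 0.209, adjusted p = 1.36e-03) and Mt2 by 0.93 (SE 0.226, adjusted p = 1.74e-03), while Mt3 stood at -0.11 (SE 0.133, adjusted p = 0.866). The call rate for this comparison was 4.8% of 14402 genes by the likelihood ratio test and 2.85% by the quasi-likelihood test, which also called Mt1 (adjusted p = 0.042) and Mt2 (0.046). Leaving out any 1 of the 8 libraries kept both calls, with Mt1 between -1.01 and -0.61 and Mt2 between -1.09 and -0.67. In the 5 libraries with at least 10 microglia, a choice made after the data were seen, Mt1 was -1.19, Mt2 -1.31 and Mt3 -0.16. These libraries hold 1 GR-Con mouse per rearing, the one with the higher Mt1 level of its group, and leave out DR GR-Con female, at 63.5 CPM of Mt1. Within NR alone that choice leaves 1 library per group, 136 CPM of Mt1 in GR-Con and 79.8 in GR-KO, and no test.

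**Figure D4:**
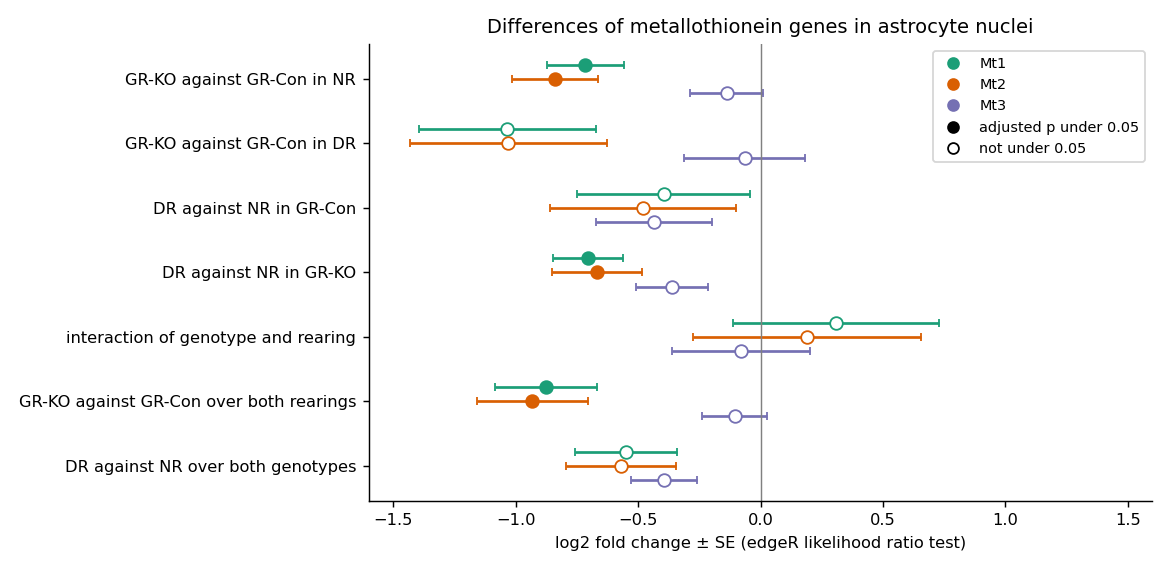
Log2 fold change with its SE for Mt1, Mt2 and Mt3 in astrocytes in the 7 comparisons, filled where the adjusted p of the edgeR likelihood ratio test was under 0.05. Mt1 and Mt2 are filled for the genotype contrast in NR and over both rearings and for darkness within GR-KO, and Mt3 in none.

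Marker sums also moved with genotype in the same astrocyte nuclei. The 8 neuron markers summed to 433 to 550 CPM in NR GR-Con and 734 to 739 in NR GR-KO, and to 395 to 592 and 438 to 449 in the DR groups. When the fit was limited to astrocyte nuclei below their library's median neuron-marker share, Mt1 was at -0.60 (adjusted p = 7.31e-03) and Mt2 at -0.76 (4.08e-03) in NR, and at -0.82 (9.81e-03) and -0.95 (5.72e-03) over both rearings. The 6 astrocyte markers summed to 15246 to 16002 CPM in NR GR-Con and 12961 to 13275 in NR GR-KO, and to 13676 to 14751 and 14196 to 15487 in DR, and the part of this sum was not tested. The 4 oligodendrocyte markers summed to 97.7 to 118 CPM in NR GR-Con, 133 to 170 in NR GR-KO, 63.2 to 81.3 in DR GR-Con and 86.3 to 93.9 in DR GR-KO, higher in GR-KO in both rearings. The 4 VLMC markers were lower in GR-KO in both rearings, at 12.5 to 14.0, 8.20 to 11.7, 11.3 to 12.02 and 8.35 to 10.3 CPM in the same order, with 2 of the 4 at 0 in at least 1 library. The 4 microglia and 4 endothelial markers overlapped between genotypes in NR, at 19.7 to 27.4 and 2.69 to 11.97 CPM over those 4 libraries. In DR the microglia markers overlapped, and the endothelial markers were at 3.87 to 5.13 CPM in GR-Con and 2.75 to 3.20 in GR-KO. The part of these markers in the result was not tested.

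The 3 OPC markers Pdgfra, Cspg4 and Vcan summed to 30.7 to 32.4 CPM in NR GR-Con, 76.0 to 96.1 in NR GR-KO, 53.0 to 54.3 in DR GR-Con and 123 to 130 in DR GR-KO. Nearly all of this was Vcan, which encodes the matrix proteoglycan versican, at 25.6 to 26.7, 70.4 to 88.9, 48.4 to 51.2 and 118 to 126 CPM in the same order. Pdgfra, the receptor that defines OPC, was at 1.92 to 2.39, 2.96 to 3.97, 1.49 to 2.20 and 1.83 to 2.23 CPM, higher in GR-KO without overlap in NR and overlapping in DR. Cspg4 was at 3.15 to 3.29, 2.61 to 3.19, 1.62 to 2.41 and 2.01 to 2.78 CPM, overlapping between genotypes in both rearings. None of the OPC, oligodendrocyte, microglia, endothelial, neuron or astrocyte markers was at 0 in any library.

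The ratio of Mt3 to Mt1 UMIs within a library does not depend on scaling. It was 0.512 to 0.770 in astrocytes of the 4 GR-Con libraries and 0.859 to 1.42 in those of the 4 GR-KO libraries, so the genotypes did not overlap. The ratio of Mt2 to Mt1 was 0.311 to 0.355 in GR-Con and 0.285 to 0.376 in GR-KO, which overlapped. These ratios were chosen after the values were seen and are given without a test.

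Rearing was compared next. In GR-KO astrocytes Mt1 fell by 0.70 in DR against NR (SE 0.142, adjusted p = 1.69e-04) and Mt2 by 0.67 (SE 0.184, adjusted p = 0.0156). Mt3 was at -0.36 (SE 0.149, adjusted p = 0.211). Among 14490 genes the call rate was 2.85% by likelihood ratio and 1.79% by quasi-likelihood, and the latter kept Mt1 (adjusted p = 0.0133) and not Mt2 (0.0579). Both DR GR-KO libraries lay below both NR GR-KO libraries for all 3 genes. Astrocyte nuclei of NR GR-KO were the deepest of the series and those of DR GR-KO among the shallowest, and the part of depth was not tested. Most marker sums also differed without overlap between these groups. Those of neurons, oligodendrocytes, microglia and endothelial cells were lower in DR GR-KO, those of astrocytes and OPC were higher, and those of VLMC overlapped. Microglia markers summed to 21.7 to 27.4 CPM in NR GR-KO and 19.2 to 20.5 in DR GR-KO. Endothelial markers summed to 4.23 to 11.97 and 2.75 to 3.20 CPM in the same order. In nuclei with a low neuron-marker share Mt1 was at -0.78 (adjusted p = 5.14e-04) and Mt2 at -0.76 (0.0528), and the part of the other sums was not tested. Without the DR GR-KO male library the Mt1 call was lost (-0.57, adjusted p = 0.255), as was the Mt2 call without 3 of the 4 libraries in turn. Without the NR GR-KO male library Mt3 was called (-0.48, adjusted p = 0.0347).

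In GR-Con astrocytes no member was called between DR and NR, where 0.147% of genes were by the likelihood ratio test and none by the quasi-likelihood test, and no member had an unadjusted p under 0.05 by the former (1, Mt3, by the latter). The estimates were -0.40 for Mt1 (SE 0.353), -0.48 for Mt2 (SE 0.379) and -0.43 for Mt3 (SE 0.236). The DR GR-Con male library, at 126 CPM of Mt1, lay within the NR range, and the female library, at 63.5, lay below both NR libraries. Without the male library, which leaves 1 DR mouse, all 3 genes were lower in DR, Mt1 at -1.01, Mt2 at -1.17 and Mt3 at -0.68. Without the female library Mt1 was at 0.03.

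Over both genotypes, with genotype as a term, the estimates for DR against NR were -0.55 for Mt1 (SE 0.208, adjusted p = 0.248), -0.57 for Mt2 (SE 0.225, adjusted p = 0.282) and -0.40 for Mt3 (SE 0.133, adjusted p = 0.144). No member was called by the likelihood ratio test, which called 0.917% of genes, or by the quasi-likelihood test, which called 3 genes. All 3 members had an unadjusted p under 0.05. For Mt3, unlike Mt1 and Mt2, the 4 DR libraries (48.0 to 64.6 CPM) all lay below the 4 NR libraries (67.2 to 77.4). Without the DR GR-Con male library the 3 estimates were -0.82 (adjusted p = 2.79e-05), -0.87 (2.75e-04) and -0.48 (0.0457). In the 5 libraries with at least 10 microglia they were -0.47, -0.34 and -0.37, none called.

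The interaction asks whether the genotype difference was the same in both rearings, and is given as the difference in NR minus that in DR. It was 0.31 for Mt1 (SE 0.420), 0.19 for Mt2 (SE 0.465) and -0.08 for Mt3 (SE 0.282), with an adjusted p of 1.00 for each. The likelihood ratio test called 0.386% of 14754 genes and no member. The quasi-likelihood test called 1 gene and no member, and no member had an unadjusted p under 0.05. Without the DR GR-Con male library the sign turned for Mt1 (-0.30) and Mt2 (-0.50). A genotype difference for Mt1 and Mt2 that is called in NR and uncalled in DR is therefore not shown to differ between rearings.

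Nuclei with vector UMIs gave a further view within each library. The sort excluded GFP-positive nuclei and free RNA can give vector UMIs, so such nuclei are not known to be transduced. The share of free RNA among the vector UMIs was not measured. Astrocyte nuclei with an EGFP or Cre UMI numbered 51 to 140 per library and were compared with nuclei without any vector UMI, that is, of EGFP, Cre or delCre (ΔCre). Nuclei with delCre UMIs alone were in neither set and occurred in both genotypes. The 2 sets held 140 and 770 of 924 astrocyte nuclei in NR GR-KO male, and 75 and 1018 of 1117 in NR GR-Con male. EGFP was at 8.63 to 23.4 CPM in astrocytes, so a transduced nucleus can lack vector UMIs and be counted as vector-negative. In GR-Con, where Cre UMIs were 0, a positive nucleus rests on EGFP alone. In GR-KO libraries the log2 ratio of Mt1 in vector-positive over vector-negative nuclei was -0.29 ± 0.22 (SD, n = 4), below 0 in 4 of 4 libraries. In GR-Con libraries it was -0.19 ± 0.21 (n = 4), below 0 in 3 of 4. For Mt2 the ratios were -0.10 ± 0.46 and -0.02 ± 0.25, and for Mt3 -0.20 ± 0.20 and -0.31 ± 0.36.

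The difference between genotypes in this ratio was -0.10 for Mt1 (exact two-sided permutation test over 4 against 4 libraries, p = 0.543), -0.09 for Mt2 (exact permutation p = 0.771) and 0.11 for Mt3 (exact permutation p = 0.714). The adjusted p over the 3 genes was 0.771 for each, and the smallest exact p the design allows is 0.0286. With an EGFP UMI as the definition in both genotypes the differences were -0.13, -0.16 and 0.01. Since the vector-negative set can hold transduced nuclei, the test cannot decide whether the 3 genes differ in transduced nuclei. When only a Cre UMI defined a positive nucleus, the GR-KO ratio was -0.60 for Mt1, -0.24 for Mt2 and -0.04 for Mt3, from 37 to 68 nuclei and 6 to 36 Mt1 UMIs per library. These counts are few, and no test was run on them.

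Other genes were read from the same astrocyte fits by lists. The list of 13 GR target genes, which was chosen with earlier results of these data known and is not independent evidence, had a median log2 fold change of -0.83 in GR-KO against GR-Con in NR, against 0.00127 for all genes, and 8 were called, all lower, where 7.11% of all genes were called. The 4 with the smallest adjusted p were the sulfotransferase Sult1a1, at -2.64 (adjusted p = 1.95e-16), the transcription factor Klf9, at -0.98 (9.09e-08), the clock gene Per1, at -0.91 (5.02e-06), and Tsc22d3, which encodes the glucocorticoid-induced leucine zipper, at -1.27 (5.88e-06). Fkbp5, a chaperone partner of the receptor, fell by 2.79 (adjusted p = 2.87e-04). Its levels were 129 and 47.6 CPM in NR GR-Con, 21.9 and 4.92 in NR GR-KO, 21.5 and 72.8 in DR GR-Con, and 9.89 and 15.4 in DR GR-KO. Mt1 and Mt2 thus lay near the median of this list, and Mt3 near that of all genes.

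In DR the same list had a median of -0.62 with 1 call, Pdk4, a mitochondrial kinase, which was higher at 1.03 (adjusted p = 0.0168) and uncalled by the quasi-likelihood test (adjusted p = 0.329). In that comparison 0.736% of all genes were called, and 8 genes of the list had an unadjusted p under 0.05. Over both rearings the median was -0.77 with 6 lower and 1 higher calls, against 4.8% of all genes called. For DR against NR the list median was -0.38 in GR-Con, -0.03 in GR-KO and -0.29 over both genotypes. The calls were 0, 1 and 0, against 0.147%, 2.85% and 0.917% of all genes. The call in GR-KO was the transcription factor Zbtb16, higher at 1.01 (adjusted p = 2.42e-03), in the direction opposite to Mt1 and Mt2.

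Of 19 genes of zinc handling tested in NR, 1 was called, Slc30a10, a share near the 7.11% of all genes called, and the median was 0.05. Slc30a10 belongs to the zinc transporter family by sequence and is best known for manganese export. It was at 118 and 121 CPM in NR GR-Con and at 188 and 166 in NR GR-KO, a rise of 0.50 on the log2 scale (SE 0.139, adjusted p = 7.31e-03). It was also called higher over both rearings (0.54, adjusted p = 2.24e-05) and in DR against NR in GR-KO (0.48, adjusted p = 0.0121), that is, opposite to Mt1 and Mt2 in the same comparisons. In DR against NR over both genotypes it was called as well (0.44, adjusted p = 5.26e-03), but not by the quasi-likelihood test (adjusted p = 0.0873). Mtf1, the activator of Mt1 and Mt2 in response to zinc, was at -0.06 in NR (SE 0.173, adjusted p = 0.951), and Slc30a1, a zinc exporter that is itself a target of Mtf1, was at 0.09 (SE 0.271, adjusted p = 0.957). Neither was called in any of the 7 comparisons.

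Of 12 or 13 copper and iron genes tested none was called in any comparison by the likelihood ratio or the quasi-likelihood test, with 0 to 4 at an unadjusted p under 0.05. Of 16 oxidative stress genes tested none was called by genotype, in NR, in DR or over both rearings, by either test, with 3, 0 and 1 at an unadjusted p under 0.05. In DR against NR in GR-KO the cystine transporter Slc7a11 was higher (0.74, adjusted p = 2.09e-03) and Gpx4, a peroxidase that protects lipids, was lower (-0.59, adjusted p = 0.0330). The quasi-likelihood test kept Slc7a11 (adjusted p = 0.0164) and not Gpx4 (0.0786), and 2.85% of all genes were called in this comparison by the likelihood ratio test. Over both genotypes Slc7a11 was called higher in DR (0.79, adjusted p = 0.0178), but not by the quasi-likelihood test (adjusted p = 0.192). Of 5 handling and stress genes tested, 1 was called in NR, against 7.11% of all genes. The median of the 5 was 0.54, against 0.00127 for all genes, and 3 had an unadjusted p under 0.05 (1 by the quasi-likelihood test). Mt1 and Mt2 were called lower in this comparison, and the part of the handling genes in that result was not tested. In DR the median was -0.0029 and over both rearings 0.47, with 0 at an unadjusted p under 0.05 and 0 calls in each by either test. For DR against NR in GR-KO, where Mt1 and Mt2 were called lower, it was -0.46, with 2 of 5 at an unadjusted p under 0.05. It was 0.17 in GR-Con and -0.18 over both genotypes, with 1 such gene each. None of these 3 rearing comparisons had a call by either test. The call in NR was Jun, an early response gene, at 0.54 (adjusted p = 0.0285), and the quasi-likelihood test did not call it (adjusted p = 0.0662).

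Outside astrocytes no genotype call was made for any member. By the likelihood ratio test the number of calls was 0 of 33 tests of a member in a cell type in NR, 0 of 29 in DR and 0 of 32 over both rearings, against 0.37%, 0.496% and 0.0739% of all gene tests in those types. The quasi-likelihood test made 0 calls as well, but it called few genes of any kind in these types. The most in a type were 33 in NR (OPC), 5 in DR (Sst) and 2 over both rearings (Lamp5 and OPC). At an unadjusted p under 0.05 there were 3 tests in NR, 0 in DR and 2 over both rearings, all of Mt3. In NR the Mt3 estimate was above 0 in 14 of 14 types (median 0.40) and the Mt1 estimate in 11 of 14 (median 0.14). In DR the Mt3 estimate was above 0 in 9 of 14 (median 0.13) and the Mt1 estimate below 0 in 10 of 12 (median -0.28). Over both rearings the Mt3 estimate was above 0 in 14 of 14 (median 0.28) and the Mt1 estimate below 0 in 6 of 13 (median 0.0084). Mt2 was tested in 3 to 5 types, with a median of 0.30 in NR, -0.23 in DR and 0.09 over both rearings. The types come from the same mice, so such counts of types are not counts of independent results. Median depth in excitatory nuclei was 25216 and 34310 UMIs in NR GR-KO and 19367 and 17708 in NR GR-Con, and its part was not tested. The interaction had 0 calls in 34 tests, with 0.166% of all gene tests called and 2 member tests at an unadjusted p under 0.05.

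Between rearings, members were called in several neuron types and in oligodendrocytes, always lower in DR. In DR against NR over both genotypes 10 of 32 tests of a member were called, all lower, against 5.72% of all gene tests in these types, of which about as many were higher (2.87%) as lower (2.85%). Mt3 was called in 7 of 14 types, Mt1 in 2 of 13 and Mt2 in 1 of 5. The estimates were below 0 in 14 of 14 types for Mt3 (median -0.58), 13 of 13 for Mt1 (median -0.64) and 4 of 5 for Mt2. The types share the same 8 mice, so they are not independent of each other.

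**Figure D5:**
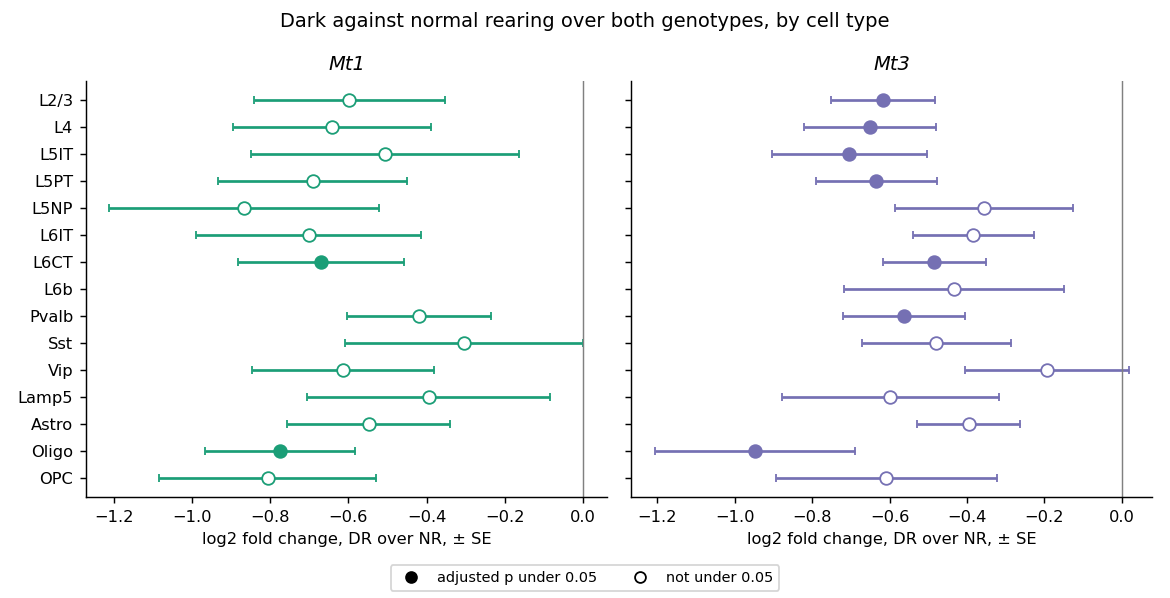
Log2 fold change of DR over NR with its SE for Mt1 and Mt3 in each cell type fitted, over both genotypes, filled where the adjusted p of the edgeR likelihood ratio test was under 0.05. All points lie below 0, between -0.95 and -0.19, and Mt3 is filled in 7 types other than astrocytes.

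Among excitatory neurons pooled over types, Mt3 was at 6.57 (male) and 5.32 (female) CPM in NR GR-Con and 8.14 and 8.04 in NR GR-KO. It was at 4.10 and 4.89 CPM in DR GR-Con and 4.84 and 4.81 in DR GR-KO. The 4 DR libraries lay below the 4 NR libraries, and the highest values were those of NR GR-KO. The summed 6 astrocyte markers in the same nuclei were at 683 to 700 CPM in NR and 561 to 673 in DR, and the median depth of excitatory nuclei was 17708 to 34310 UMIs in NR and 16939 to 21657 in DR. The sum of Aqp4, Gja1, Slc1a3 and Aldoc alone, which leaves out Slc1a2 and Slc4a4, was at 12.7 to 20.1 CPM in NR and 10.3 to 20.9 in DR, and overlapped. The part of the 6 markers and of depth in the result was not tested.

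The Mt3 calls were L2/3 (-0.62, adjusted p = 1.41e-04), L4 (-0.65, 3.78e-03), L5IT (-0.70), L5PT (-0.63), L6CT (-0.48), Pvalb interneurons (-0.56) and oligodendrocytes (-0.95). In L4, the main layer that receives visual input, Mt3 was at 5.90, 4.44, 7.70 and 7.50 CPM in the NR libraries and at 3.72, 4.34, 3.55 and 3.88 in the DR libraries, which lay below. Mt1 was called in L6CT (-0.67) and oligodendrocytes (-0.78), and Mt2 in L2/3 (-0.61). In oligodendrocytes Mt1 was at 13.6, 10.4, 11.6 and 9.33 CPM in NR and at 6.22, 8.84, 4.64 and 6.73 in DR, again without overlap. The 6 astrocyte markers in oligodendrocytes summed to 172 to 217 CPM in NR and 138 to 185 in DR, which overlapped in part. Aqp4, Gja1, Slc1a3 and Aldoc alone summed to 98.8 to 109 CPM in NR and 62.6 to 83.8 in DR, lower in all 4 DR libraries like Mt1, and their part in the result was not tested.

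The quasi-likelihood test kept 3 of these 10 calls, Mt3 in L2/3 (adjusted p = 0.0103), L4 (0.0382) and L6CT (0.0294), against 3.73% of all gene tests. The same 3 were called in the 5 libraries with at least 10 microglia (adjusted p = 0.0119, 0.0371 and 6.61e-03). The Mt3 call in L2/3 was made without each of the 8 libraries in turn, and those in L4, L6CT and L5PT without 7 of 8. The L4 estimate was -0.55 without the DR GR-KO male library (adjusted p = 0.0578), the L6CT estimate -0.45 without the NR GR-Con male library (0.0556) and the L5PT estimate -0.54 without the latter (0.0952).

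The other 6 calls were lost more often. Mt1 in oligodendrocytes was called in 6 of 8 such fits, Mt3 in oligodendrocytes and in L5IT in 5 each, Mt3 in Pvalb interneurons in 4, Mt1 in L6CT in 3 and Mt2 in L2/3 in 2. All 6 were lost without the NR GR-Con male library, at -0.71 (adjusted p = 0.0577), -0.84 (0.112), -0.69 (0.0962), -0.47 (0.154), -0.60 (0.129) and -0.61 (0.128) in that order. All but the first were also lost without the DR GR-KO male library, at -0.76, -0.55, -0.54, -0.58 and -0.52. Calls were lost as well without the NR GR-KO male library (both in oligodendrocytes, Mt1 in L6CT and Mt2 in L2/3), the NR GR-KO female library (Mt3 in L5IT and Pvalb, Mt2 in L2/3), the DR GR-Con male library (Mt3 in Pvalb, Mt1 in L6CT, Mt2 in L2/3) and the DR GR-KO female library (Mt1 in L6CT, Mt2 in L2/3). The estimates of all 10 calls stayed below 0 in every such fit.

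Calls within genotypes were also all lower in DR. In GR-KO 8 of 33 member tests were called, all lower, 4 of Mt3 (L2/3, L4, L6CT and oligodendrocytes) and 4 of Mt1 (L4, L6IT, oligodendrocytes and OPC), against 3.71% of all gene tests. The smallest adjusted p was that of Mt3 in L4, at -0.96 (SE 0.190, adjusted p = 6.41e-05), the single call the quasi-likelihood test kept (adjusted p = 0.0451, with 0.793% of all gene tests called). All 8 calls were lost without the DR GR-KO male library, where Mt3 was at -0.68 (L2/3, adjusted p = 0.382), -0.88 (L4, 0.132), -0.58 (L6CT, 0.440) and -0.67 (oligodendrocytes, 0.571), and Mt1 at -0.77 (L4, 0.476), -0.73 (L6IT, 0.703), -0.59 (oligodendrocytes, 0.636) and -1.10 (OPC, 0.408). Of the 4 fits without 1 library, Mt3 in L4 and Mt1 in L6IT were called in 3, Mt3 in L2/3 and in oligodendrocytes in 2, and the other 4 in 1. Other losses were without the DR GR-KO female library (Mt3 in L2/3 and L6CT, Mt1 in L4, oligodendrocytes and OPC), the NR GR-KO male library (Mt3 in L6CT and oligodendrocytes, Mt1 in L4 and oligodendrocytes) and the NR GR-KO female library (Mt1 in OPC). The estimates ran from -1.71 to -0.67 for Mt3 in oligodendrocytes, from -1.16 to -0.59 for Mt1 there, from -1.69 to -0.76 for Mt1 in OPC, from -1.56 to -0.73 for Mt1 in L6IT and from -1.13 to -0.72 for Mt1 in L4.

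In GR-Con 1 of 33 was called, Mt3 in L5PT at -0.75 (adjusted p = 0.0400, and uncalled without any 1 of the 4 libraries), against 2.4% of all gene tests. The quasi-likelihood test called no member, and in L5PT it called 86 of 14772 genes. The GR-Con estimates were nevertheless below 0 in 13 of 14 types for Mt3 and 13 of 14 for Mt1, but in 3 of 5 for Mt2 (median -0.08, highest 0.30). As stated above, no member had an interaction call, so a difference in the response to darkness between genotypes was not shown in these types.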

How the data were processed

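V1 of mice at postnatal day 21 was dissected, and nuclei were sorted by DRAQ5 and made into droplet single-nucleus libraries. According to the study's methods, the authors aligned reads with Cell Ranger 8.0.1 to mm10 with a custom annotation that held the EGFP sequence, removed nuclei with very few or very many counts, ran DoubletFinder, clustered with Seurat 5.3.0 and dropped clusters without marker genes. The deposited matrix holds raw UMI counts per gene and nucleus, not normalized, and the deposited cell table gives library, rearing, vector, sex and cell type. Its library names give the group and sex but not the replicate number. Nuclei held 1402 to 69932 UMIs, and no further nuclei were removed and no doublets called here.

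Counts were summed per library and cell type, so that the mouse was the unit of replication. Each group held 1 male and 1 female mouse. CPM means use libraries with at least 10 nuclei of a type. Tests were made with edgeR 4.0.16 in R 4.3.3 (filterByExpr, TMM, glmLRT), the likelihood ratio test named in the study's methods, which takes the estimated spread as known and is two-sided here, over all genes of a type, with Benjamini-Hochberg adjustment within the type and calls at an adjusted p under 0.05. SE was obtained from the log2 fold change and the square root of the likelihood ratio statistic, as their quotient. Alternatives were the quasi-likelihood test, DESeq2 1.42.0, RLE factors, no filter on low counts, sex as a term, nuclei with a low neuron-marker share and leaving out each library. Vector ratios used log2(CPM + 1).

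The metallothionein genes, the gene lists and the tests were chosen with earlier results of these data known. Named from each list were up to 4 called genes with the smallest adjusted p, plus Mtf1, Slc30a1 and Fkbp5. Genes most alike were the 5 with the highest correlation over cell types among genes with at least 10 CPM in a type. Promoters came from a RefSeq table of GRCm38.p6, in which all 3 genes matched by symbol.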

Additional observations from a re-analysis of the deposited data

How the results depend on the processing

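For astrocytes, the lower Mt1 and Mt2 in GR-KO, both in NR and over both rearings, kept direction and call in every setting run. No setting made the depth of the libraries equal. RLE factors, no filter on low counts and sex as a term changed no call among the 21 astrocyte results. No paired analysis was possible because the library names in the cell table carry no replicate number, so the only block was sex, with 1 male and 1 female per group. Mt2 in DR against NR in GR-KO lost its call by the quasi-likelihood test (-0.67), by DESeq2 (-0.67) and in nuclei with a low neuron-marker share (-0.76), where Mt3 in GR-KO against GR-Con in DR turned to 0.0066, and Mt3 in the interaction was 0.24 in the 5 libraries with at least 10 microglia. The causes were not tested.

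Leaving out 1 library leaves a group with 1, which is assumed to vary like the others. The ranges were then, for GR-KO against GR-Con in DR, -1.45 to -0.41 (Mt1), -1.49 to -0.34 (Mt2) and -0.28 to 0.18 (Mt3). For DR against NR in GR-Con they were -1.01 to 0.030 (Mt1), -1.17 to -0.019 (Mt2) and -0.68 to -0.23 (Mt3), and in GR-KO -0.86 to -0.57, -0.82 to -0.54 and -0.49 to -0.23. Over both genotypes they were -0.82 to -0.40, -0.87 to -0.38 and -0.48 to -0.31, and for the interaction -0.30 to 0.73, -0.50 to 0.64 and -0.32 to 0.12. For the vector-positive difference between genotypes they were -0.17 to 0.0079, -0.23 to 0.14 and -0.029 to 0.24. A Cre UMI as the definition moved the Mt1 ratio in GR-KO to -0.60, and thinning to 1000 UMIs moved the shares of astrocyte nuclei with a UMI to 8.42%, 3.01% and 6.34%.

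Of the 19 calls in other types, the quasi-likelihood test kept 4, RLE factors 18, no filter 14 and sex as a term 19, DESeq2 kept 9 and lost 9, and leaving out a library kept 68 of 116, and none reversed. TMM scaling moved 3 of 60 levels by more than their SD. With 2 mice per group, the Mt1 and Mt2 comparisons within DR and within GR-Con depended on which DR GR-Con mouse was kept.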
